A study of Mus musculus with 2 samples.

Results

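The genes described here encode the receptors for the incretin hormones and for glucagon, Glp1r, Gipr and Gcgr. They were chosen by name, and were 3 of the 33038 genes listed in the islet count tables. Their UMIs (unique molecular identifiers, each standing for 1 captured transcript) were followed across cells grouped by hormone. A cell was counted for insulin (Ins1 and Ins2 together), Gcg (glucagon), Sst (somatostatin) or Ppy (pancreatic polypeptide) where that hormone reached 1% of the cell's UMIs. The receptor counts played no part in forming these groups.

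The cells came from mouse pancreas (male C57BL/6J, aged 8 weeks), in a single condition labelled control. The number of animals is not given in the methods. Islets were freed with collagenase, picked by hand and dissociated with trypsin-EDTA, and 10000 cells entered each of 2 RevGel-seq libraries. In RevGel-seq, every cell is tied to a barcoded bead and lysed inside a gel that is afterwards dissolved by a chemical buffer. The methods describe the libraries as technical replicates, so the spread between them holds no difference between animals, and SD values below refer to these 2 libraries. The preparation is a mixture of all cells that survive dissociation, with no sort or gate.

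GLP-1 and GIP are gut hormones released after a meal, and their receptors GLP1R and GIPR raise insulin release from beta cells when glucose is high. The glucagon receptor, GCGR, is best known from the liver, where it drives glucose output. The 3 receptors belong to the secretin family of G protein-coupled receptors and signal mainly through Gs, adenylyl cyclase and cAMP, which acts on protein kinase A and on the EPAC exchange factors.

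Glp1r (ENSMUSG00000024027) lies at chr17:30901817-30940791 on the plus strand of GRCm38, Gipr (ENSMUSG00000030406) at chr7:19156061-19166127 on the minus strand, and Gcgr (ENSMUSG00000025127) at chr11:120530699-120538986 on the plus strand. Each is protein-coding, and its transcript with most exons has 14 of them in GENCODE M21. The counts came from exonic reads of the whole gene. Glp1r overlaps AC165951.1 and AC174471.1 on the opposite strand, and neither had a row in the tables. Gcgr overlaps Gm11789, an antisense gene with 26 UMIs in library 1 and 24 in library 2. Whether the counting used strand is not given in the sources used here, so reads of Glp1r and Gcgr cannot be told apart from those of the overlapping genes. Gipr overlapped no other annotated gene.

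Promoter sequence is shown for Glp1r and Gcgr, the receptors with an entry among the RefSeq promoter windows used here. Each line gives the 200 bases that end 50 bases before the RefSeq start of the gene (GRCm38.p6, plus strand, 5′ to 3′), at chr17:30901617-30901816 and chr11:120530477-120530676. Capitals mark the GC box letters GGGCGG, searched on both strands.

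Glp1r: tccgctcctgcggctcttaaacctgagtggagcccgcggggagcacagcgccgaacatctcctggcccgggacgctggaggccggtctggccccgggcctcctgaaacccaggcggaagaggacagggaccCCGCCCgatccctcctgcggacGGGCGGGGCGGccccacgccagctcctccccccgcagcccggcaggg
Gcgr: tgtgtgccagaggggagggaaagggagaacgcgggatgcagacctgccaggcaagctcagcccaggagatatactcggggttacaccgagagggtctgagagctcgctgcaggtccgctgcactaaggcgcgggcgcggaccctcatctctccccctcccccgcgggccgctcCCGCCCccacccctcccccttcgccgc

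The Glp1r window held 3 GC box matches, of which 2 shared 1 base, and the Gcgr window held 1. Of 32851 RefSeq promoter windows of the same length, 24.6% held at least 1. GC content was 75% for Glp1r and 69.5% for Gcgr, against a median of 51.5% over all windows. CpG dinucleotides numbered 20 and 16, against a median of 4. Neither window held CANNTG (E-box, in 59.0% of windows), TAAT (a homeodomain core, 50.1%), TGCTGA (part of a Maf site, 13.1%) or TGACG (part of a cAMP response element, 12.7%) on either strand. These matches describe letters in a window and are not measured binding sites.

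The tables held 735 cells with 15931154 UMIs in library 1 and 748 cells with 17440292 UMIs in library 2, with 0 barcodes shared. Hormones took 26.2% and 26.5% of all UMIs, so the hormone genes were left out of the totals, and CPM here means UMIs of a gene per 1000000 non-hormone UMIs of a group. Of 1483 cells, 1390 fell into 7 groups with at least 20 cells in each library: 372 with insulin only, 356 with Gcg only, 58 with Sst only, 122 with Ppy only, 151 with Gcg and Ppy, 148 with Sst and Ppy and 183 with no hormone. Median depth ran from 10187.5 non-hormone UMIs per cell in insulin-only cells of library 2 to 20180 in Ppy-only cells of the same library. Markers not used for grouping followed the hormones: Mafa averaged 1189 CPM in insulin-only cells and at most 2.98 CPM in the other groups, Ttr 44487 CPM in Gcg-only cells, Hhex 398 CPM in Sst-only cells and Pyy 47592 CPM in Ppy-only cells.

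Glp1r was a transcript of insulin-only cells, with a lower level in both groups that contained Sst and little elsewhere. In insulin-only cells the level was 1472 CPM in library 1 and 1418 CPM in library 2 (1445 ± 38.1, SD, n = 2). In Sst-only cells it stood at 160 and 158 CPM, and in cells with Sst and Ppy at 164 and 218 CPM. Their libraries lay below those of insulin-only cells and above those of all groups without insulin or Sst, with no overlap. Ppy-only cells stood at 34.4 and 10.6 CPM, with 60.0% and 77.8% of those UMIs from 3 cells of each library. Gcg-only cells had 7.24 and 5.67 CPM, and cells with Gcg and Ppy had 4.48 and 6.95 CPM, so these glucagon groups overlapped. The level in cells without a hormone was 6.92 CPM in library 1 against 43.5 CPM in library 2. In library 2, a single cell gave 80 of the 94 UMIs, and without it the level was 6.65 CPM.

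**Figure D1:**
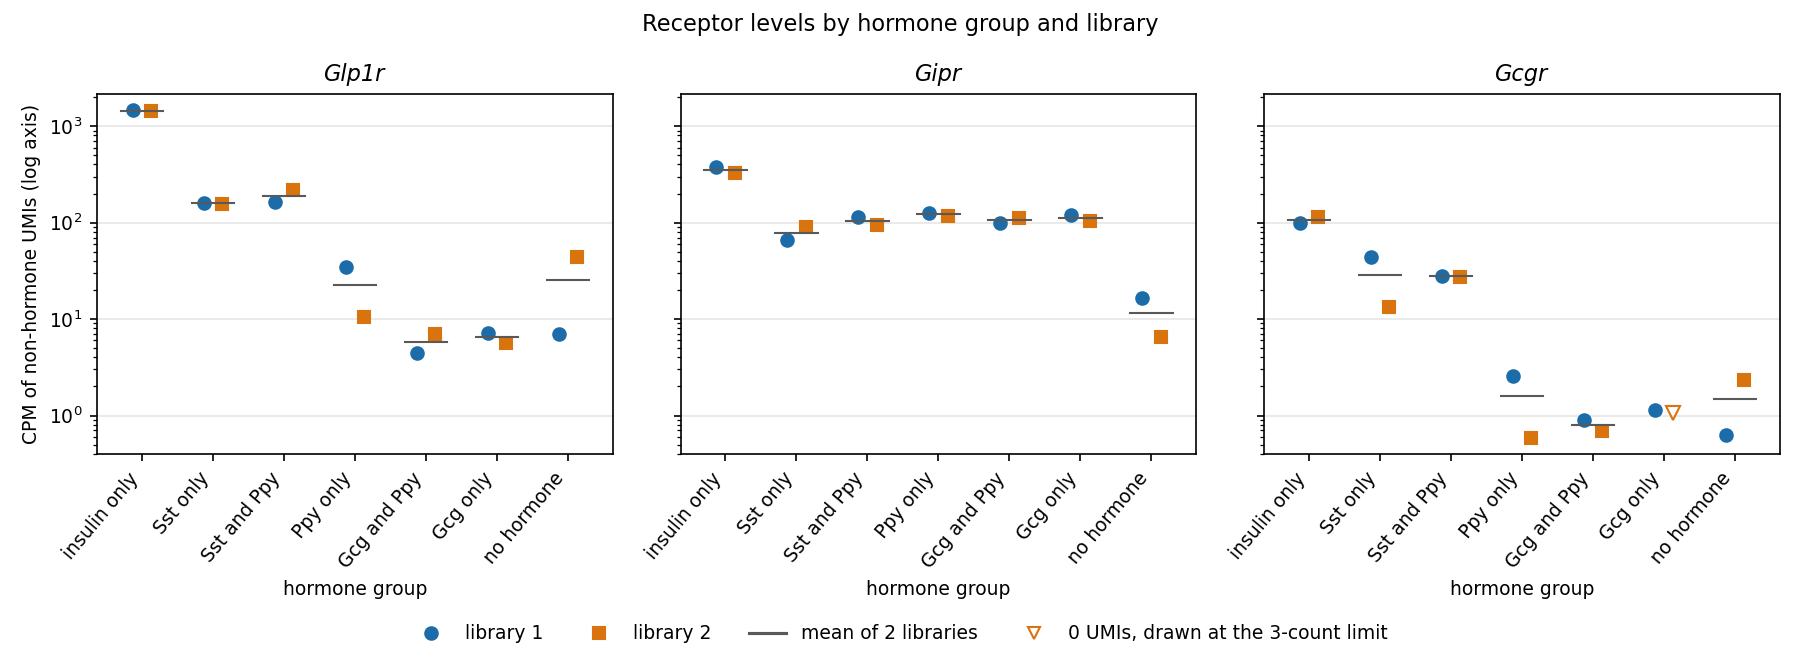
Levels of Glp1r, Gipr and Gcgr in the 7 hormone groups, in CPM of non-hormone UMIs on a log axis, with 1 point per library and a line at the mean. Glp1r and Gcgr fall in steps from insulin-only cells through the groups with Sst to the rest, while Gipr sits between 65.9 and 126 CPM in the other groups with a hormone and is lowest without one. The open triangle stands for 0 UMIs of Gcgr and is drawn at the level of 3 counts. Heights are to be read within a panel and were not compared between genes.

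Glp1r was tested on summed counts, 1 sum per library and group, with edgeR's quasi-likelihood test and Benjamini-Hochberg adjustment over 14955 genes. Insulin-only cells exceeded Gcg-only cells by 7.83 on the log2 scale (SE 0.52, adjusted p = 3.67e-08 by edgeR), from 7357 UMIs against 35. In that comparison all 3 receptors were called higher in insulin-only cells, where 12.8% of all genes tested were called in the same direction. Against Sst-only cells Glp1r was higher by 3.34 (SE 0.43, edgeR adjusted p = 6.87e-05), and again all 3 receptors were called, against 7.48% of genes. Against Ppy-only cells it was higher by 6.16 (SE 0.48, edgeR adjusted p = 3.11e-07), with all 3 receptors called, against 10.3% of genes.

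Between the other groups, Glp1r separated cells with Sst from the rest. Sst-only cells exceeded Gcg-only cells by 4.49 on the log2 scale (SE 0.58, edgeR adjusted p = 8.69e-05) and Ppy-only cells by 2.82 (SE 0.55, edgeR adjusted p = 0.00369). In these comparisons 2 of the 3 receptors were called, Glp1r and Gcgr, both higher in Sst-only cells, where 6.31% and 4.67% of genes were called in that direction. The level in Ppy-only cells was not called different from that in Gcg-only cells (log2 difference 1.67, SE 0.66, edgeR adjusted p = 0.146). That comparison depended on the setting: without a filter on low counts its adjusted p was 5.56e-06 by edgeR, and with a hormone threshold of 5% it was 0.0401. The 7 beta cell markers summed to 4652 and 2041 CPM in Ppy-only cells, against 757 and 576 CPM in Gcg-only cells. Iapp made up most of the sum, at 2888 against 561 CPM on average. Nkx6-1 and Pdx1 were also higher in Ppy-only cells, and Ucn3 was so in library 1. On average, Mafa (1.02 against 2.53 CPM), Slc2a2 (2.01 against 4.10 CPM) and G6pc2 (9.06 against 18.0 CPM) were lower in Ppy-only cells. In Ppy-only cells the marker sum was higher in library 1, as Glp1r was. Ucn3 was at 3.61% and 0.221% of the insulin-only level and Iapp at 8.67% and 3.20%. By CPM, Slc2a2, G6pc2 and Pdx1 were also higher in library 1, while Mafa (0.859 and 1.17) and Nkx6-1 (386 and 418) were higher in library 2. The part of these markers in the difference was not tested. With the filter, none of the 3 receptors was called by edgeR between Ppy-only and Gcg-only cells, where 9.49% of genes were. Of the 3, only Glp1r had an unadjusted p under 0.05 (0.0238), and DESeq2 called none.

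Gipr was spread more evenly over the endocrine groups. Its level in insulin-only cells was 378 CPM in library 1 against 325 CPM in library 2 (351 ± 37.4, SD, n = 2). Ppy-only cells had 126 and 117 CPM, Gcg-only cells 121 and 104 CPM, cells with Gcg and Ppy 99.5 and 113 CPM, and cells with Sst and Ppy 114 and 93.3 CPM. In the order of their means, the libraries of neighbouring groups among these 4 overlapped. Sst-only cells had 65.9 and 90.5 CPM, from 57 UMIs in all. Cells with no hormone stood lowest, at 16.3 and 6.49 CPM, and their libraries lay below those of every endocrine group.

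By edgeR's test, Gipr was higher in insulin-only cells than in Gcg-only cells by 1.68 on the log2 scale (SE 0.18, adjusted p = 7.12e-06), than in Sst-only cells by 2.36 (SE 0.24, adjusted p = 8.00e-06) and than in Ppy-only cells by 1.58 (SE 0.19, adjusted p = 2.45e-05). Ppy-only and Gcg-only cells differed by 0.09 on that scale (SE 0.20, edgeR adjusted p = 0.854), and the ratio of their summed counts was 1.08 with a counting interval of 0.943 to 1.23. Sst-only cells were lower than Gcg-only cells by a log2 difference of -0.68 (SE 0.26, edgeR adjusted p = 0.107) and lower than Ppy-only cells by -0.77 (SE 0.26, edgeR adjusted p = 0.0838). Neither difference passed the threshold, and both passed it without a filter on low counts (edgeR adjusted p = 0.0144 and 0.00666). Against cells with no hormone, Gipr was higher in insulin-only cells by 4.99 (SE 0.25), in Gcg-only cells by 3.31 (SE 0.26), in Sst-only cells by 2.63 (SE 0.34) and in Ppy-only cells by 3.40 (SE 0.27), with edgeR adjusted p from 8.59e-10 to 2.46e-05.

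Gcgr, like Glp1r, was highest in insulin-only cells, lower in the groups with Sst and near 0 elsewhere. It stood at 98.2 CPM in library 1 and 115 CPM in library 2 in insulin-only cells (106 ± 11.6, SD, n = 2). Cells with Sst and Ppy had 27.9 and 27.4 CPM, from 30 UMIs in each library. Sst-only cells had 43.9 and 13.4 CPM, which enclose those values. The higher of these rested on few cells, since 1 cell held 10 of the 20 UMIs in library 1 and library 2 had 4 UMIs in all. The summed level of 7 endothelial markers moved the same way in Sst-only cells, at 763 CPM in library 1 and 43.6 CPM in library 2. Hormone-free cells in which endothelial markers led had 0 UMIs of Gcgr, in 27 cells of library 1 and 33 of library 2. These counts allow a share of cells with a UMI of up to 11.1% and 9.09%. The part of endothelial cells in the Gcgr levels was not tested.

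Cells with glucagon had few UMIs of the glucagon receptor. Gcg-only cells held 3 UMIs of Gcgr in 182 cells of library 1 (1.14 CPM) and 0 in 174 cells of library 2, which allows up to 1.06 CPM, or a share of cells with a UMI of up to 1.72%, and sets no limit on cells that express the gene. Cells with Gcg and Ppy held 1 UMI in each library, and Ppy-only cells held 3 and 1. Cells with no hormone held 1 and 5 UMIs, so all 4 groups lay at a few UMIs per library and their libraries overlapped. The counts of insulin-only and Gcg-only cells, 538 against 3, gave a ratio of 192 per non-hormone UMI with a counting interval of 65.4 to 935. The ratio of Sst-only to Gcg-only cells, from 24 against 3 UMIs, was 57.9 with an interval of 17.6 to 300.2. Gcgr passed edgeR's test in both comparisons (adjusted p = 9.75e-08 and 0.000161), although the second was lost with equal numbers of cells in each group (edgeR adjusted p = 0.113).

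Gcgr was also higher in insulin-only than in Sst-only cells, by 1.93 on the log2 scale (SE 0.42, edgeR adjusted p = 0.00514), and higher than in Ppy-only cells by 6.22 (SE 0.54, edgeR adjusted p = 9.63e-07). Sst-only cells exceeded Ppy-only cells by 4.29 (SE 0.76, edgeR adjusted p = 0.00180), a call that equal numbers of cells removed (edgeR adjusted p = 0.0617). The difference was also seen with a larger group, since cells with Sst and Ppy exceeded Ppy-only cells by 4.15 (SE 0.66, edgeR adjusted p = 0.000769), from 60 UMIs against 4.

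**Figure D2:**
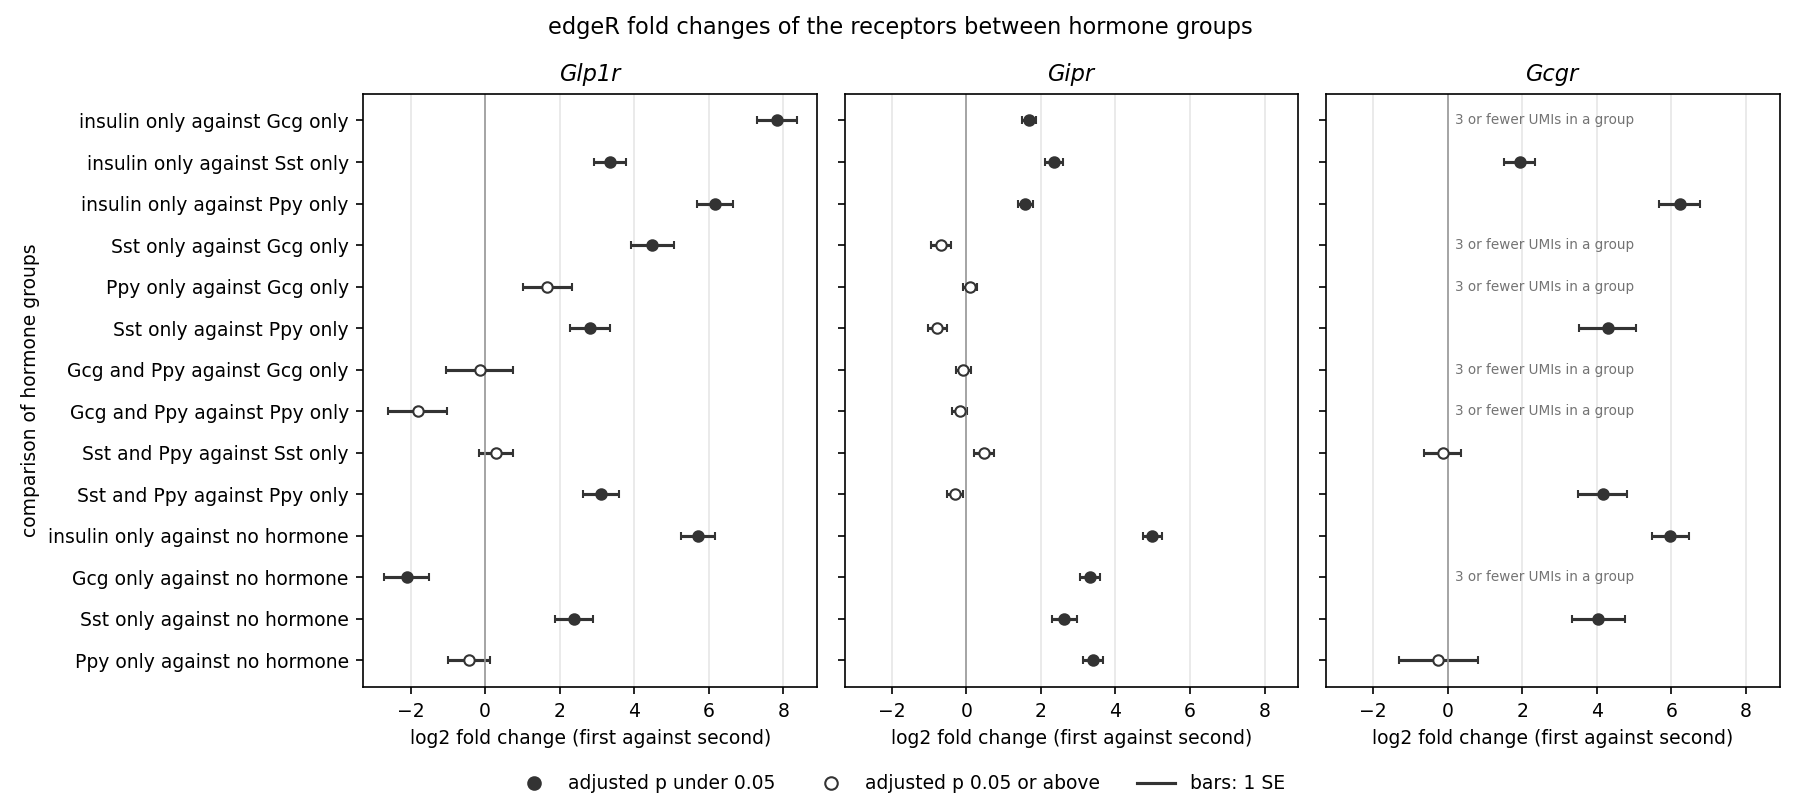
Fold changes of the 3 receptors between hormone groups on the log2 scale, first group against second, from edgeR over 2 libraries per group, with bars of 1 SE and filled points where the adjusted p was under 0.05. Glp1r and Gcgr are called in every comparison of insulin or Sst with Ppy or no hormone, and Gipr is called only where insulin-only cells or cells with no hormone are compared. Comparisons with 3 or fewer UMIs in a group have no point.

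Cells with a pair of hormones were set against each single-hormone group they share a hormone with. Between cells with Gcg and Ppy and Gcg-only cells, none of the 3 receptors was called by edgeR, where 0.0401% of genes were. For cells with Sst and Ppy against Sst-only cells, none was called either, where 0.0134% of genes were. Their unadjusted p was 0.101 or more in both comparisons by edgeR, and DESeq2 called none of them. At these shares of all genes, the lack of a call says little about 3 genes. Gcgr had 2 UMIs against 3 in the first comparison, too few to show a difference, and 60 against 24 in the second. The differences of Glp1r were -0.14 (SE 0.90) and 0.29 (SE 0.44) on the log2 scale, and those of Gipr were -0.09 (SE 0.20) and 0.47 (SE 0.27). The ratio of summed Glp1r counts had a counting interval of 0.464 to 1.72 in the first comparison and 0.976 to 1.48 in the second. For Gipr the intervals were 0.824 to 1.101 and 1.02 to 1.87, and for Gcgr 0.119 to 12.4 and 0.533 to 1.46. Only that of Gipr in the second comparison excluded equal levels, with a ratio of 1.37 and more in cells with Sst and Ppy. These intervals cover counting error only. Against Ppy-only cells, cells with Sst and Ppy had more Glp1r by 3.11 (SE 0.49, edgeR adjusted p = 0.000691), and 2 of the 3 receptors were called higher where 4.86% of genes were. Cells with Gcg and Ppy had 15 UMIs of Glp1r against 58 in Ppy-only cells. That difference of -1.81 (SE 0.80) was not called (edgeR adjusted p = 0.291), except without a filter on low counts (adjusted p = 0.000241), and none of the 3 receptors was called by edgeR or DESeq2 where 3.31% of genes were by edgeR. The unadjusted p of Glp1r was 0.0385, and those of the others were above 0.05.

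The groups with Sst were then compared with insulin-only cells for the 7 beta-cell markers other than insulin. In Sst-only cells the markers fell apart into 5 at 1.36% or less and 2 near or above the receptors. Glp1r was at 11.0% ± 0.150 (SD, n = 2) of its insulin-only level, Gipr at 22.7% ± 7.37 and Gcgr at 28.2% ± 23.4. The transcription factor Mafa was at 0.0945% ± 0.134, the peptide Ucn3 at 0.316% ± 0.447, the glucose transporter Slc2a2 at 0.849% ± 0.725, G6pc2 at 0.407% ± 0.0806 and the transcription factor Nkx6-1 at 1.36% ± 0.989. In both libraries the 3 receptors were at a higher share of the insulin-only level than any of these 5 markers. The other 2 markers were not low: Iapp, which encodes amylin, was at 31.0% ± 0.141 and the transcription factor Pdx1, known from beta and delta cells, at 45.8% ± 0.168. With Iapp at 15205 CPM on average, the 7 markers summed to 15248 and 15541 CPM in Sst-only cells, against 54311 and 55877 CPM in insulin-only cells.

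Cells with Sst and Ppy showed the same division. Glp1r was at 13.2% ± 2.98 of the insulin-only level, Gipr at 29.5% ± 1.12 and Gcgr at 26.2% ± 3.17, beside 0.235% for Mafa, 4.89% for Nkx6-1, 25.8% for Iapp and 48.1% for Pdx1. In Ppy-only cells, Gipr was at 34.8% ± 1.88 and Nkx6-1 at 27.8% ± 0.160, while Glp1r was at 1.54% ± 1.12. In Gcg-only cells, Gipr was at 32.0% ± 0.0629, and Glp1r at 0.446% ± 0.0651 was in the range of Ucn3 (0.409%) and Slc2a2 (0.606%). The part of mixed cells in these values was not tested.

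**Figure D3:**
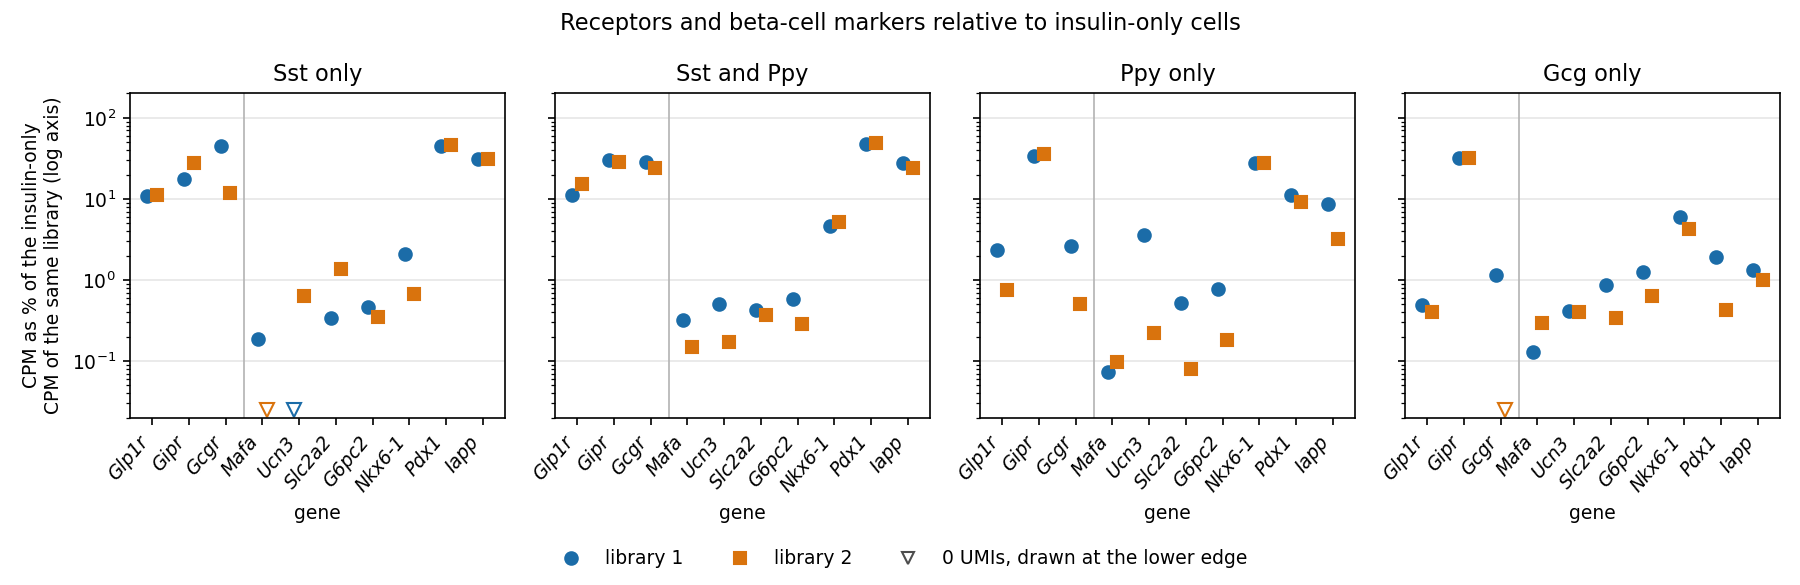
CPM of the 3 receptors (left of the line) and of 7 beta-cell markers (right) in 4 hormone groups, as a percent of the insulin-only CPM of the same library on a log axis, with 1 point per library. In both groups with Sst, the receptors lie at 10.9% or more, as do Pdx1 and Iapp, while the other 5 markers lie at 5.14% or less. In Gcg-only cells, Gipr stays near 32.0% in both libraries, above every marker.

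Among the 7 groups with at least 20 cells in each library, the share of cells with a UMI was highest in insulin-only cells for each receptor. Glp1r was detected in 178 of 182 insulin-only cells of library 1 (97.8%, 95% exact Clopper-Pearson interval 94.5% to 99.4%) and in 97.4% of those of library 2. It was detected in 68.6% and 78.3% of Sst-only cells and in 9.34% and 6.32% of Gcg-only cells. For comparison, the share was 7.41% and 18.2% in hormone-free cells led by endothelial markers and 7.14% and 2.44% in those led by leukocyte markers. Median depth was 14700 and 16383 non-hormone UMIs in the endothelial and 12693 and 14559.5 in the Gcg-only cells. The Glp1r level of Gcg-only cells, 7.24 and 5.67 CPM, overlapped that of the endothelial-led cells (6.92 and 7.47 CPM), while the leukocyte-led cells had 6.75 and 1.55 CPM. Free RNA was not measured, so a low level in Gcg-only cells and background cannot be told apart. Intervals and limits cover counting error only.

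Gipr was detected in 90.7% and 87.4% of insulin-only cells, 66.5% and 58.6% of Gcg-only cells, 74.1% and 69.1% of Ppy-only cells and 45.7% and 60.9% of Sst-only cells. In contrast, 0 of 27 and 0 of 33 cells led by endothelial markers had a Gipr UMI, which allows up to 11.1% and 9.09%, and those led by leukocyte markers gave 1 of 42 and 1 of 41 cells. Cells led by ductal markers gave 3 of 12 and 2 of 12 cells, at 44.3 and 25.9 CPM, and in library 1 a single cell held 16 of their 19 UMIs. Of the hormone-free cells with fewer than 5 UMIs of each non-endocrine marker list, 2 of 3 and 1 of 2 had a Gipr UMI. Gcgr was detected in 53.3% and 57.4% of insulin-only cells, 23.4% and 26.8% of cells with Sst and Ppy, and 17.1% and 17.4% of Sst-only cells.

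Thinning each cell to 4000 non-hormone UMIs, which left out 1 insulin-only cell of library 2, lowered these shares but kept insulin-only cells highest of these 7 groups for each receptor. The expected share for Glp1r was then 93.6% and 94.9% in insulin-only cells, 40.1% and 43.7% in Sst-only cells and 2.55% and 2.04% in Gcg-only cells. For Gipr it was 71.2% and 66.5% in insulin-only cells, 36.2% and 32.4% in Ppy-only cells, which were the deepest, and 35.0% and 30.0% in Gcg-only cells. The gap between Ppy-only and Gcg-only cells in the share with Gipr thus narrowed at equal depth.

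**Figure D4:**
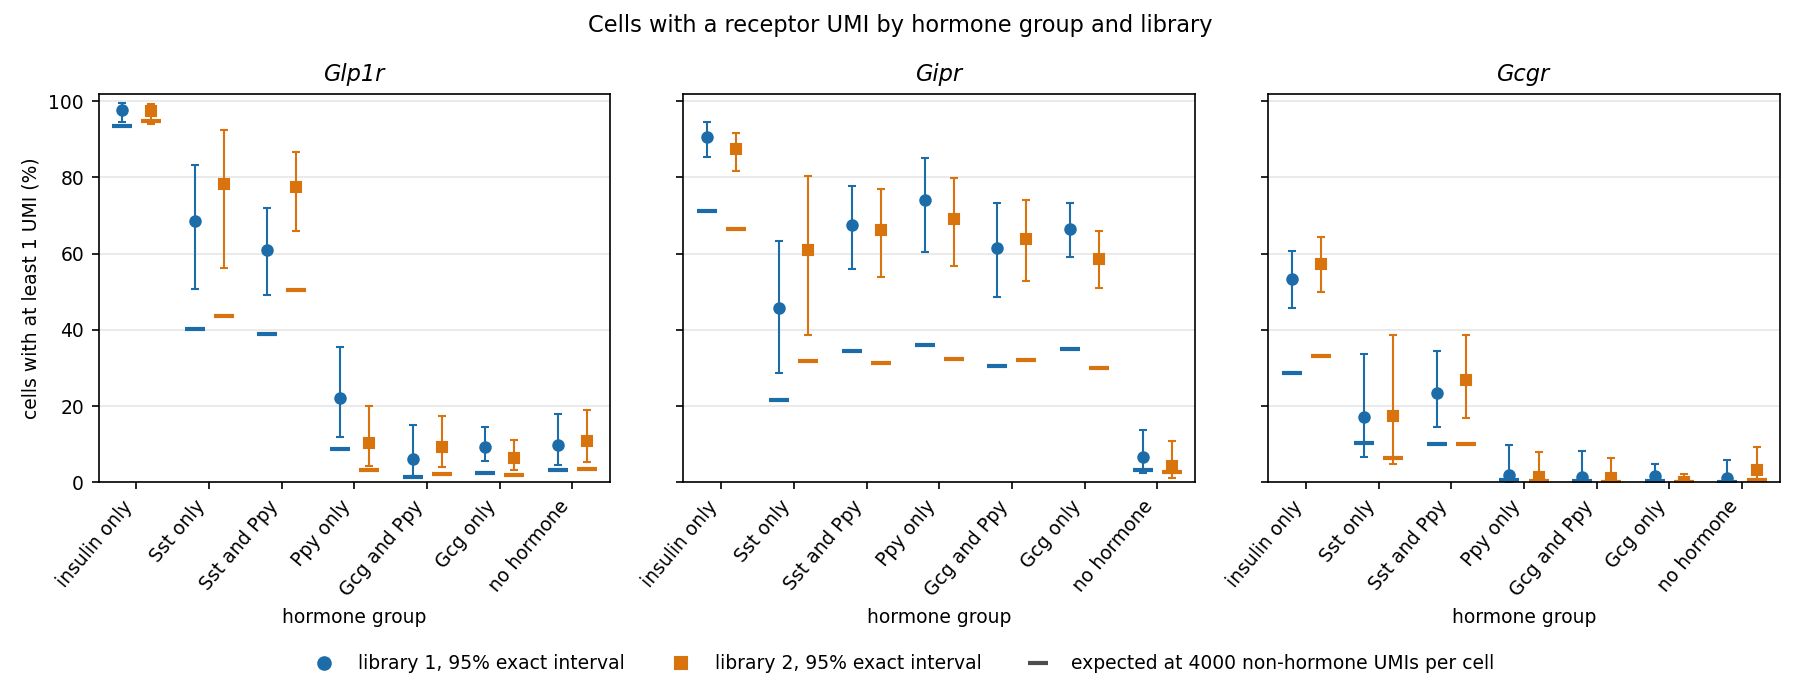
Percent of cells with at least 1 UMI of each receptor by hormone group, with 1 point per library, 95% exact intervals, and a dash for the share expected at 4000 non-hormone UMIs per cell. Gipr is found in 45.7% to 90.7% of cells in all groups with a hormone and in 6.59% or less of cells without, while Gcgr is near 0 in the groups with Gcg and in Ppy-only cells.

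Within insulin-only cells, Glp1r was present in nearly all cells and its amount varied. The median cell had 17 Glp1r UMIs in library 1 and 13 in library 2, and the highest had 112 and 109. Scaled to 10000 non-hormone UMIs, the middle 50% of cells ran from 8.23 to 19.5 in library 1 and from 8.34 to 17.8 in library 2. In 4 and 5 cells there was no Glp1r UMI, which was 2.20% and 2.63% of cells, where 0.00533% and 0.00862% would be at 0 if every cell held the group's level at its own depth.

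All 3 receptors were found together in 88 of 182 insulin-only cells in library 1 and in 95 of 190 in library 2. Over cells, the Pearson correlation of Glp1r and Gipr was 0.17 and 0.28, and that of Glp1r and Gcgr was 0.13 and 0.02. For Gipr and Gcgr it was 0.23 and -0.05. These are descriptions over cells of 1 library each, with sparse counts. In Gcg-only cells, 62.1% and 58.0% of cells had exactly 1 of the receptors.

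Insulin-only cells were also ranked by the insulin share of their UMIs and divided into 4 bands of 45 to 48 cells per library. By CPM of non-hormone UMIs, Glp1r was lowest in the band with least insulin in both libraries, at 969 and 987 CPM, and highest in the third band, at 1906 and 1730 CPM. This order depended on the denominator. With all UMIs counted, Glp1r was lowest in the band with most insulin in both libraries, at 704 and 611 per 1000000 UMIs, against 726 and 694 in the band with least, and it was highest in the third band in library 1 (1108) and in the second in library 2 (1013). Gipr was lowest in the band with most insulin, going from 396 and 346 CPM in the lowest band to 283 and 271 CPM in the highest, and it was lowest there with either denominator. Gcgr showed no shared order, its highest value being in the second band in library 1 (118 CPM) and in the fourth in library 2 (184 CPM). The lowest band also had the lowest Mafa, at 564 CPM in both libraries, and the highest Pyy, at 1415 and 1145 CPM. Ucn3 and Iapp were lowest there in both libraries as well. Slc2a2 was lowest there in library 1 (374 CPM). In library 2 it was lowest in the band with most insulin, at 557 CPM against 571 CPM in the band with least. Between the lowest and the highest band, median depth went from 15443 to 8393.5 non-hormone UMIs in library 1 and from 14601.5 to 7039.5 in library 2, and the median mitochondrial share from 0.618% to 0.131% and from 0.545% to 0.133%. Their part in the pattern was not tested.

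**Figure D5:**
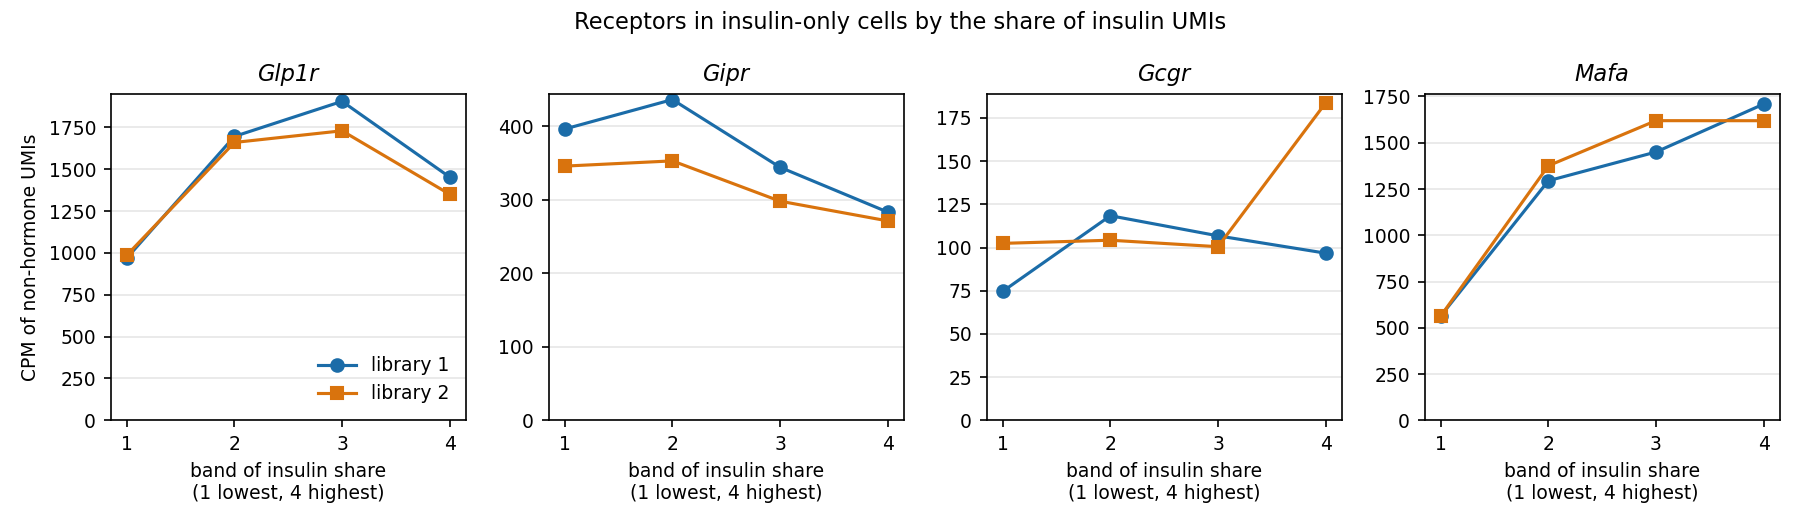
CPM of the 3 receptors and of Mafa in insulin-only cells, by 4 bands of the insulin share of a cell's UMIs, with 1 line per library and vertical axes that start at 0. By CPM of non-hormone UMIs, as drawn, Glp1r and Mafa are lowest in the first band in both libraries and Gipr in the last, while with all UMIs counted Glp1r too is lowest in the last.

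Cells with no hormone were a mixture, and their receptor counts came from few cells. Endothelial markers summed to 8133 and 10681 CPM and leukocyte markers to 3926 and 3834 CPM in this group. Insulin-only cells exceeded it for all 3 receptors (25.9% of genes were called in that direction), with a Glp1r difference of 5.72 (SE 0.46, edgeR adjusted p = 7.53e-08). Sst-only cells did so as well (19.2% of genes), with Glp1r higher by 2.38 (SE 0.51, edgeR adjusted p = 0.00152) and Gcgr by 4.05 (SE 0.70, edgeR adjusted p = 0.000305). The Glp1r call was lost with equal numbers of cells (log2 difference 0.74, edgeR adjusted p = 0.251). Of the receptors, only Gipr was called higher in Gcg-only and Ppy-only cells, where 25.5% and 23.7% of genes were.

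Glp1r appeared lower in Gcg-only cells than in cells without a hormone, by a log2 difference of -2.11 (SE 0.60, edgeR adjusted p = 0.00785), where 29.5% of genes were called lower. This rested on the single cell with 80 UMIs: without it, the difference was -0.13 and was not called (edgeR adjusted p = 0.844). For Glp1r, the same step moved the difference of insulin-only cells from cells with no hormone from 5.72 to 7.70 and that of Sst-only cells from 2.38 to 4.36. In Ppy-only cells, it turned a difference of -0.44 (edgeR adjusted p = 0.539) into 1.54 (edgeR adjusted p = 0.00882). Leaving out this cell was chosen after the values had been seen.

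Profiles over the 14 sums, taken as log2(CPM + 10), were compared by Pearson correlation: it was 0.97 for Glp1r and Gcgr, 0.50 for Glp1r and Gipr, and 0.55 for Gipr and Gcgr. These points share libraries and cells of 1 preparation, so the values are descriptions. Among 8552 genes, those closest to Glp1r were Ppp1r1a (r = 0.97), Spock2, Creg1, Adra2a and Vapb (0.96). Ppp1r1a, which encodes an inhibitor of protein phosphatase 1, was also closest to Gcgr (0.98), ahead of Prkcsh, Creg1, Vapb and Cntnap2. Ppp1r1a averaged 825 CPM in insulin-only cells, 138 CPM in Sst-only cells and 13.6 CPM in Gcg-only cells. Adra2a, an inhibitory adrenergic receptor, averaged 179, 35.5 and 2.74 CPM in the same groups. Both genes were chosen by their profile over these sums, so their levels restate that choice. For Gipr, the closest were Hepacam2 and Pfkfb2 (0.98 each), Slc38a10, Ubxn4 and Prepl.

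Genes around the receptors were read from 6 lists of 66 genes, covering ligands and their processing, other receptors of the family with their partners, cAMP production, cAMP effectors, cAMP breakdown and receptor desensitisation. Of these, 63 were in the tables and 52 passed the filter. Between insulin-only and Gcg-only cells, 9 of the 52 were higher in insulin-only cells and 10 in Gcg-only cells, shares of the same order as the 12.8% and 12.2% of all genes. Pcsk1, a prohormone convertase that makes GLP-1 from proglucagon, averaged 571 CPM in insulin-only and 3.33 CPM in Gcg-only cells, and was higher by 7.44 (SE 0.49). Pcsk2, the convertase that makes glucagon, was lower by -1.03 (SE 0.07). Vipr1, a receptor for VIP, was lower by -1.29 (SE 0.20), and Ramp1, a partner of calcitonin-family receptors, higher by 0.79 (SE 0.22).

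Within the same comparison, 4 of 10 cAMP production genes were higher in Gcg-only cells and 1 in insulin-only cells, with a list median of -0.84 on the log2 scale beside 0 for all genes. Gnas, which encodes the Gs alpha subunit, averaged 69.7 CPM in insulin-only cells against 891 CPM in Gcg-only and 1036 CPM in Sst-only cells, a log2 difference of -3.64 (SE 0.14) from Gcg-only and -3.73 (SE 0.14) from Sst-only cells. Its locus also carries antisense transcripts, so these counts are uncertain. Among adenylyl cyclase genes, Adcy1 was lower by -6.10 (SE 1.19), Adcy6 lower by -1.37 (SE 0.18) and Adcy9 higher by 0.85 (SE 0.23) in insulin-only than in Gcg-only cells. Among cAMP effectors, the kinase subunits Prkar2b (2.60, SE 0.26) and Prkacb (0.89, SE 0.22) were higher in insulin-only cells, and Rapgef4, which encodes EPAC2, was lower by -0.41 (SE 0.14). Of the breakdown genes, the phosphodiesterases Pde7b (4.15, SE 0.95), Pde3a (4.04, SE 0.68) and Pde4b (0.81, SE 0.23) were higher and Pde4d (-1.76, SE 0.27) and Pde7a (-1.02, SE 0.25) lower. The receptor kinase gene Grk5 was higher by 1.78 (SE 0.24), and Arrb2, a beta-arrestin, lower by -0.53 (SE 0.16). All of these passed edgeR's test, with adjusted p of 0.0438 or less.

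Against Sst-only cells, 7 of the 52 genes were higher in insulin-only cells and 8 were higher in Sst-only cells (7.48% and 6.97% of all genes). Grk5 (3.34, SE 0.44), Vipr1 (3.00, SE 0.47), Pcsk1 (2.75, SE 0.40) and Prkar2b (1.94, SE 0.35) were higher in insulin-only cells, while Ramp1 (-1.86, SE 0.23) and Pde4d (-2.05, SE 0.33) were higher in Sst-only cells. Against Ppy-only cells the counts were 6 and 9 (10.3% and 9.87% of all genes), with Grk5 (3.31, SE 0.31), Pcsk1 (3.26, SE 0.36) and Prkar2b (1.95, SE 0.27) again higher in insulin-only cells and Rapgef3, which encodes EPAC1, lower by -2.88 (SE 0.49). Between Sst-only and Gcg-only cells, 10 genes were higher in Sst-only and 5 in Gcg-only cells (6.31% and 6.01% of all genes), with Ramp1 higher by 2.64 (SE 0.24) and Vipr1 lower by -4.29 (SE 0.41). Of the 52 genes, edgeR called 0 between cells with Gcg and Ppy and Gcg-only cells, where 0.0401% of all genes were called. In that comparison 7 of the 52 had an unadjusted edgeR p under 0.05. Between cells with Sst and Ppy and Sst-only cells, edgeR called 0 as well, where 0.0134% of all genes were called. There 2 of the 52 had an unadjusted edgeR p under 0.05. The share of all genes under that unadjusted p was not counted for either comparison, so neither count can be read against it. DESeq2 called 0 in both comparisons.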

How the data were processed

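The members and gene lists were chosen with earlier results of these data known. The files deposited by the authors hold raw UMI counts by gene and cell barcode, 1 file for each library, made with their Cytonaut software: barcodes above a UMI-tools knee, exonic reads aligned to GRCm38 and counted on Ensembl genes. Only barcodes past that depth threshold were analysed here. From these counts, cells were grouped by hormones at 1% of UMIs, and raw UMIs were summed per library and group with at least 20 cells. Ins1, Ins2, Gcg, Sst and Ppy were left out of totals and tests. Tests on the 14 sums used edgeR (version 4.0.16, run in R 4.3.3, with TMM, filterByExpr, glmQLFit, glmQLFTest, Benjamini-Hochberg, threshold 0.05) in 1 fit with 14 contrasts, 7 residual degrees of freedom and 14955 genes. The script was tested on simulated counts. Levels are CPM, and shares carry 95% exact Clopper-Pearson intervals or, at 0, a limit of 3 counts. With 2 libraries a group, 0.333 is the smallest two-sided p of an exact permutation test, so levels and shares were set against the SD. P-values measure the spread between technical replicates.

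Python 3.11.15 with pandas 2.3.3 and scipy 1.17.1 was used. Scrublet in scanpy 1.11.5 marked 8 cells as doublets in each library, which were kept in the main analysis. Cells without a hormone were named by the marker list with most UMIs, from at least 5 UMIs. The genes named are the 3 receptors, up to 3 called genes per list and direction with the largest fold change and at least 50 UMIs, and the 5 genes most correlated with each receptor among those averaging at least 20 CPM. Of 33038 identifiers, 32971 (99.8%) were found in GENCODE M21. Promoter windows are RefSeq's, which had entries for Glp1r and Gcgr. As same-numbered sums come from the same library, the number marks shared handling. The correlation of same-library deviations between groups ran from -0.20 to 0.28 over 21 pairs of groups and 8555 genes (median 0.01). Alternatives changed the scaling, tool, filter, hormone threshold, assignment, doublets, cell numbers, library and replicate block.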

Additional observations from a re-analysis of the deposited data

How the results depend on the processing

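Of 42 receptor fold changes, 24 were called, and 254 of 259 alternative values of those kept the call. RLE scaling, DESeq2, a 2% threshold, hormone genes in the library size and the replicate block changed no call of a receptor (with the block, Glp1r of insulin-only against Gcg-only cells was 7.84). With equal numbers of cells, calls were lost for Gcgr of Sst-only against Gcg-only (3.28) and Ppy-only cells (3.75) and for Glp1r of Sst-only cells against no hormone (0.74), and Glp1r of Ppy-only cells against no hormone became called at -1.68. The same setting reversed uncalled differences of Ppy-only against Gcg-only cells (Gipr -0.094, Gcgr -0.46), of Gcg and Ppy against Gcg only (Gipr 0.046, Gcgr -2.43) and Ppy only (Gipr 0.14), and of Sst and Ppy against Sst only (Gcgr 0.68). Without a filter, calls were gained for Gipr of Sst-only against Gcg-only (-0.75) and Ppy-only cells (-0.84), and for Glp1r of Ppy only against Gcg only (1.66) and Gcg and Ppy against Ppy only (-1.83). A 5% threshold called Glp1r of Ppy only against Gcg only (1.35) and reversed Gcgr of Gcg and Ppy against Gcg only (-0.060), as did removing doublets (-0.41). A 0.5% threshold reversed Gcgr of Ppy only against Gcg only (-0.63) and of Gcg and Ppy against Ppy only (0.74). Assigning cells to the hormone with most UMIs removed the call of Glp1r in Gcg-only cells against no hormone (-1.37) and reversed Ppy only against no hormone for Glp1r (0.46) and Gcgr (0.40). Without the cell with 80 Glp1r UMIs these comparisons of Glp1r gave -0.13 and 1.54. The causes of these changes were not tested.

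A fit without 1 library has no residual degrees of freedom, so log2 ratios of CPM + 1 per library are given. Leaving out either library moved Glp1r, Gipr and Gcgr of Gcg and Ppy against Gcg only from -0.59 to 0.25, from -0.28 to 0.11 and from -0.18 to 0.76, Gcgr of Gcg and Ppy against Ppy only from -0.92 to 0.10, and Gcgr of Sst and Ppy against Sst only from -0.64 to 0.98. Against no hormone, Gcg only moved from -2.74 to 0.057 (Glp1r) and from -1.73 to 0.40 (Gcgr), and Ppy only from -1.95 to 2.16 (Glp1r) and from -1.06 to 1.14 (Gcgr).

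The number of genes called fell with equal numbers of cells from 3739, 2161 and 3016 to 1119, 878 and 943 for insulin only against Gcg only, Sst only and Ppy only, from 1843 to 839 for Sst only and 1419 to 371 for Ppy only against Gcg only, from 1358 to 604 for Sst only against Ppy only, from 6 to 3 and 495 to 126 for Gcg and Ppy against Gcg only and Ppy only, from 1361 to 434 for Sst and Ppy against Ppy only, and from 8500, 8236, 6691 and 7788 to 4249, 3851, 4046 and 4289 for insulin, Gcg, Sst and Ppy only against no hormone. For Gcg and Ppy against Gcg only, and Sst and Ppy against Sst only, it was 11 and 4 with DESeq2 and 153 and 66 with no filter, against 6 and 2. Gcg and Ppy against Ppy only gave 787 with no filter and 290 at 5%. Sst and Ppy against Sst only gave 0 by edgeR at 2%, where 876 of 14788 genes had an unadjusted edgeR p under 0.05. Contrasts with Sst only at 0.5%, with Sst and Ppy at 5%, and with paired hormones under the hormone with most UMIs could not be fitted for lack of cells.

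Keeping hormone genes in the denominator lowered the mean CPM of Glp1r to 874, 4.84 and 143 in insulin-only, Gcg-only and Sst-only cells, of Gipr to 213, 84.4, 78.6, 77.5 and 88.1 in insulin-only, Gcg-only, Ppy-only, Gcg and Ppy, and Sst and Ppy cells, and of Gcgr to 64.1, 0.580 and 23.4 in insulin-only, Gcg and Ppy, and Sst and Ppy cells. Averaging over cells gave Glp1r 164 in Sst-only and Gcgr 29.1 in Sst and Ppy cells. Thinning to 4000 UMIs moved 20 of 21 shares by more than the SD, and thinning to 8000 moved 15. The groups with Gcg, with Ppy only and with no hormone held 0 to 5 Gcgr UMIs per library.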

Other observations

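The cell of library 2 with 80 Glp1r UMIs had 53243 UMIs and no hormone at 1%. Among its leading genes were several known from gastric gland mucus cells: Tff2 with 8450 UMIs, which was 99.3% of the library's Tff2, Gkn3 with 1859 UMIs, Muc6 with 675 and Agr2 with 245. All 221 UMIs of the pepsinogen gene Pgc in that library came from it. It had 87 UMIs of Epcam and 32 of Krt19, and 0 of Gipr, Gcgr, Iapp, Pecam1, Ptprc and Cpa1. It is 1 cell, chosen after its values were seen, and no such cell was compared between groups.

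A further 93 cells fell into 7 hormone combinations with under 20 cells in a library and entered no test. In cells with insulin and Sst (14 in library 1 and 8 in library 2), Glp1r stood at 1044 and 1097 CPM and Gcgr at 111 and 55.03 CPM. In cells with insulin and Ppy (12 and 8 cells), Glp1r stood lower, at 368 and 331 CPM, and Gipr at 341 and 448 CPM. In cells with Gcg and Sst (8 and 6 cells), Glp1r stood at 109 and 63.6 CPM, from 17 and 9 UMIs. Doublets and single cells with a pair of hormones cannot be told apart in these combinations.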
